A study of Mus musculus with 6 samples.

Results

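The axon guidance ligands and receptors are 70 protein-coding genes of the 19288 rows in the count table, and 60 of them passed the low-count filter. The 10 that did not were Efna3, Epha7, Epha8, Epha10, Ephb2, Ntn5, Plxnb3, Robo3, Sema4f and Sema5b. Members were chosen by symbol alone: semaphorins of classes 3 to 7, plexins, neuropilins, Slits, Robos, netrins, Dcc and the Unc5 receptors, Draxin, Eph receptors and ephrins. The choice of these families was made with earlier results of these libraries known, so every value below is a description of these libraries. The libraries are bulk messenger RNA from subcutaneous tumours of LLC1 cells, a mouse Lewis lung carcinoma line, taken 30 days after implantation. All hosts carried a beta-hCG transgene and came from crosses of CB57BL/6 females (the labels' spelling) with beta-hCG transgenic FVB males. Beta-hCG is the subunit that distinguishes the pregnancy hormone hCG from related hormones, and the labels do not name the promoter of the transgene or the age of the hosts. Each of 3 groups held 2 libraries: hosts with no ovariectomy or supplement named (transgenic tumours), ovariectomized transgenic hosts given vehicle for 28 days (vehicle tumours) and ovariectomized transgenic hosts given progesterone for 28 days (progesterone tumours). Transgenic and vehicle tumours thus differ by both ovariectomy and vehicle, whose effects cannot be told apart. Tumour and host cells are both of mouse origin, and in bulk RNA fewer cells of a type cannot be told apart from less RNA per cell.

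Axon guidance molecules were named for steering growing nerve fibres, and most of them also act in vessels, epithelia, immune cells and tumours. Semaphorins signal through plexins, and the secreted class 3 semaphorins mostly need a neuropilin as co-receptor. Netrins bind Dcc and Unc5 receptors, Slits bind Robos, and ephrins on one cell bind Eph receptor kinases on the next, with signals passing into both cells.

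Library totals ran from 19526775 to 30083925 counts, of which the members took 0.257% to 0.347%. A count of 0 allows up to 3 counts, which is 0.103 to 0.159 TMM-scaled CPM (the usual unit of counts relative to library size) depending on the library. Some libraries stood apart in cell markers. The 13 fibroblast markers, most of whose counts come from Col3a1, summed to 2012 CPM in transgenic library 2 and to 5352 to 11724 in the others, and the 15 endothelial markers to 165 CPM in progesterone library 1 and 356 to 424 in the others. The 7 red blood cell markers summed to 2828 and 2503 CPM in transgenic library 1 and vehicle library 1 and to 65.5 to 300 in the others. The keratins Krt8 and Krt18 were present at 125 to 393 CPM in every library, whereas Epcam stayed at or under 0.222 CPM and the alveolar marker Sftpc at or under 0.0370 CPM. Of the other lung epithelial markers, Scgb1a1 stayed at or under 0.0827 CPM. Napsa (1.64 to 4.48 CPM), Cdh1 (1.70 to 3.44) and Krt19 (0.337 to 3.22) were low but present. The neuron and Schwann cell lists were mixed. Rbfox3 stayed at or under 0.412 CPM and Sox10 at or under 0.248, but the neurofilament gene Nefl reached 103 CPM and Nefm 44.0, and of genes that other cells also express, Mbp had 35.2 to 109 CPM and Pmp22 24.4 to 69.9.

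By edgeR's quasi-likelihood test over 13632 genes, 0 of 60 members were called at an adjusted p under 0.05 in any of the 3 comparisons, against a background of 0% of all genes in each. The smallest adjusted p of a member was 0.810 for vehicle against transgenic, 0.826 for progesterone against vehicle and 0.914 for progesterone against transgenic tumours. At an unadjusted p under 0.05 there were 6, 5 and 6 members, or 10.0%, 8.33% and 10.0%, beside 5.57%, 5.29% and 5.27% of all genes. limma-voom also called 0 members in each comparison. DESeq2 called 1 (Sema4c) for vehicle against transgenic, 2 (Draxin and Plxna4) for progesterone against vehicle, and 3 (Draxin, Ntn1 and Sema4c) for progesterone against transgenic, beside 0.462%, 0.528% and 0.337% of all genes. edgeR without the low-count filter called 1 (Sema4c), 2 (Draxin and Plxna4) and 1 (Draxin), beside 0.0622%, 0.477% and 0.145% of all 19288 rows.

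Because no member passed that test, sizes were read with a single rule: a log2 fold change of at least 1 in either direction and no overlap between the libraries of the 2 groups. In vehicle against transgenic tumours 2 of 60 members were higher by this rule (3.33%, beside 1.56% of all genes) and 1 was lower (1.67%, beside 2.0%). In progesterone against vehicle tumours 3 were higher (5.00%, beside 3.25%) and 3 lower (5.00%, beside 1.75%). In progesterone against transgenic tumours 3 were higher (5.00%, beside 2.37%) and 1 lower (1.67%, beside 1.48%). The higher members were Sema4c and Sema4g in the first comparison, Draxin, Plxna4 and Sema3d in the next, and Draxin, Epha1 (under 1 CPM in every library) and Sema3d in the last. The lower members were Efna2, then Ephb6, Sema4g and Slit1, then Ephb1. These shares rest on 1 to 3 genes each and none is read as a property of the families. The groups did not overlap for 13, 16 and 14 of the 60 members in the 3 comparisons (21.7%, 26.7% and 23.3%), fewer in proportion than among all genes (35.6%, 36.2% and 29.0%). The median log2 fold change of the 60 members was 0.06, 0.11 and 0.04, against -0.01, 0.01 and 0.01 over all genes. Without progesterone library 2 the last 2 medians of the members were -0.40 and -0.32, so their sign rested on that library.

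The sequences upstream of 3 members that the results turn on are shown here: Draxin, whose values were highest in the progesterone tumours, and Sema4c and Ephb6, whose values were highest in the vehicle tumours. Each is the 200 bases before the gene's start from RefSeq on GRCm38.p6, read 5′ to 3′ on the gene's strand. The Draxin window is chr4:148130699-148130898, minus strand, inside the Mad2l2 gene, which runs the other way. The Sema4c window is chr1:36558382-36558581, minus strand. The Ephb6 window is chr6:41605311-41605510, plus strand, and its last 29 bases lie inside the gene as GENCODE annotates it, which starts further upstream than in RefSeq. Capitals mark the core of the hypoxia response element, searched as ACGTG or GCGTG on both strands, since hypoxia genes were highest in the vehicle tumours.
Draxin: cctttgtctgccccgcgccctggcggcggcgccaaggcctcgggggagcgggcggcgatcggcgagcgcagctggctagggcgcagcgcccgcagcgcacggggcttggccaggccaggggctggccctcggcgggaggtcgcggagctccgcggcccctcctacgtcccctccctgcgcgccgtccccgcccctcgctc
Sema4c: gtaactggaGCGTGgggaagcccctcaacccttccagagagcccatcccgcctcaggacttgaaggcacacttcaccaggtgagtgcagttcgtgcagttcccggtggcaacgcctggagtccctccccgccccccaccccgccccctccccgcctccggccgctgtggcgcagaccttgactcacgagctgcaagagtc
Ephb6: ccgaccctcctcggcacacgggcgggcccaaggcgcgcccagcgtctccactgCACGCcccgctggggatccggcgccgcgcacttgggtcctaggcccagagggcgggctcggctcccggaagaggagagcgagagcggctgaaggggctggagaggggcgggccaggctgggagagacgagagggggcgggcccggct
The Sema4c and Ephb6 windows held 1 match each and the Draxin window held 0. The half-site of progesterone and glucocorticoid receptors, searched as TGTTCT on both strands, had 0 matches in any of the 3. The ACGTG form of the first motif also lies within the E-box CACGTG, whereas the matches marked in Sema4c and Ephb6 are of the GCGTG form. The 2 motifs do not overlap each other. In the 250 bases before each start, 38.6% of 32851 RefSeq windows held the hypoxia core and 16.1% held the half-site. Of the 60 members with an entry, 30 held the first and 5 the second in at least 1 window, and by window the shares were 42.1% and 9.21% of 76. These matches describe letters, and neither their presence nor their absence was tied to a factor.

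Levels between genes are compared per kb of exon (CPM per kb, with the length taken as the union of all annotated exons, so genes with long rare exons read low). Netrin 1 had the highest level of all members, 88.6 CPM per kb over the 6 libraries. It was followed by the plexin Plxnb2 (45.8), the semaphorin Sema4c (35.0), the co-receptor Nrp2 (33.4), the semaphorin Sema7a (33.1), the kinase Epha2 (32.1) and the netrin receptor Unc5b (24.4). The ranges over the 6 libraries of Sema4c (16.9 to 50.9), Nrp2 (26.7 to 42.1), Sema7a (18.7 to 53.7) and Epha2 (26.6 to 40.2) overlapped, so these neighbours do not differ beyond their spread. Several known ligand and receptor pairs were both present. Sema4c binds Plxnb2. Of the receptors that bind netrin 1, Unc5a had 7.68 CPM per kb beside 24.4 for Unc5b, and Dcc had 0.0309. Neogenin (Neo1), a further netrin receptor outside the chosen families, had 91.3 to 181 CPM. That value is not scaled by length, and in the same unit Unc5b had 120 to 183 CPM. Sema7a, a membrane-anchored semaphorin, had 33.1 CPM per kb and its plexin Plxnc1 had 0.506. The ephrin Efna1 had 10.1 beside 32.1 for its receptor Epha2, and Efnb2 had 4.93 beside 5.31 for Ephb4, a pair known from arteries and veins. The Slits and Robos had means of at most 2.22 CPM per kb, that of the endothelial Robo4 (1.09 to 2.79). Slit3 had the highest mean of the Slits (1.39), which rested on 4.88 in progesterone library 2. Its other 5 values, 0.348 to 1.19, overlapped those of Slit2 (0.138 to 1.15).

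**Figure D1:**
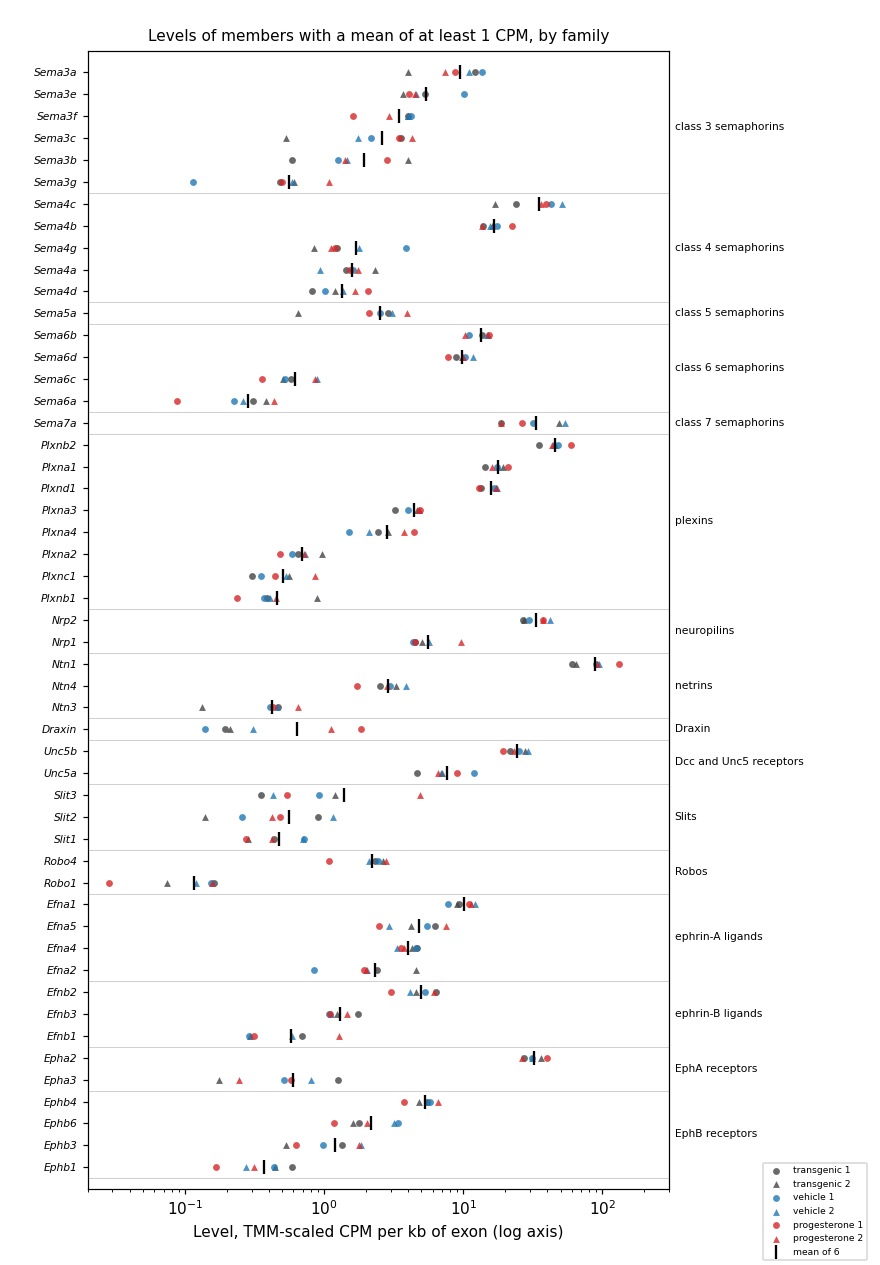
Level of the 51 members with a mean of at least 1 CPM, as TMM-scaled CPM per kb of exon on a log axis, grouped by family. Circles and triangles are libraries 1 and 2 of each group and the black bar is the mean of 6 libraries. Ntn1 lies furthest right (mean 88.6) and Robo1 furthest left (0.115).

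Among the ligands, class 4 semaphorins held both members that met the rule as higher in vehicle tumours than in transgenic tumours. Sema4c (ENSMUSG00000026121, chromosome 1, 36548639 to 36558349) encodes a transmembrane ligand of plexin B receptors. Its TMM-scaled values were 110 and 77.5 CPM for transgenic tumours, 196 and 234 for vehicle tumours and 182 and 167 for progesterone tumours. Both groups of ovariectomized hosts lay above both transgenic libraries, and the vehicle libraries were the highest. The log2 fold change was 1.20 ± 0.21 (SE) for vehicle against transgenic (adjusted p = 0.810 by edgeR, 0.000321 by DESeq2) and 0.90 ± 0.21 for progesterone against transgenic (adjusted p = 0.914 by edgeR, 0.0373 by DESeq2). Between progesterone and vehicle tumours it was -0.30 ± 0.20.

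Sema4g (ENSMUSG00000025207, chromosome 19, 44989101 to 45003397), a less studied member of the same class, had 10.8 and 7.33 CPM for transgenic tumours, 33.7 and 15.5 for vehicle tumours and 10.4 and 9.64 for progesterone tumours. Both vehicle libraries lay above the other 4, and vehicle library 1 was more than 2-fold above every other library. Its log2 fold change was 1.44 ± 0.41 against transgenic tumours, and -1.30 ± 0.41 from vehicle to progesterone tumours. Without vehicle library 1 these were 0.78 and -0.64, and without vehicle library 2 they were 1.90 and -1.75. The other class 4 members were closer between groups. Sema4b, the second highest of the class at 16.5 CPM per kb, ranged from 77.3 to 126 CPM. Sema4d, a ligand also made by lymphocytes, had 6.30 and 9.19 CPM for transgenic tumours, 7.75 and 10.5 for vehicle tumours and 15.9 and 12.7 for progesterone tumours. The progesterone libraries were the highest for Sema4d without a 2-fold change in either comparison. Sema4a ranged from 5.04 to 12.5 CPM with overlapping groups.

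Class 3 semaphorins are secreted and act mostly through neuropilins and plexins. Sema3a, the highest of the class and a repellent of axons and vessels, had 168 and 55.3 CPM for transgenic tumours, 188 and 151 for vehicle tumours and 120 and 102 for progesterone tumours. The vehicle libraries were above the progesterone libraries (log2 fold change -0.61 ± 0.45 for progesterone against vehicle), and the transgenic libraries spanned both. Sema3e, a ligand that binds plexin D1 directly, had 93.8 CPM in vehicle library 1 and 34.3 to 49.2 in the other 5. Sema3f, a ligand of Nrp2, had 20.9 and 20.6 CPM for transgenic tumours, 21.7 and 20.9 for vehicle tumours and 8.38 and 15.3 for progesterone tumours. Both progesterone libraries lay below the other 4 (log2 fold change -0.85 ± 0.31 against vehicle and -0.81 ± 0.31 against transgenic), and without progesterone library 1 the values were -0.49 and -0.45. That library had the lowest endothelial marker sum, whose part here was not tested.

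Sema3d (ENSMUSG00000040254, chromosome 5, 12383385 to 12588948) met the 2-fold rule at a low level. It had 0.815 and 0.590 CPM for transgenic tumours, 0.343 and 0.636 for vehicle tumours and 0.889 and 1.94 for progesterone tumours. The progesterone libraries were above the rest, with log2 fold changes of 1.54 ± 0.70 against vehicle and 1.0 ± 0.68 against transgenic tumours. Without progesterone library 2 they were 0.88 and 0.34. Sema3c and Sema3b differed most within the transgenic group: Sema3c had 25.3 and 3.79 CPM and Sema3b 2.78 and 19.1 in its 2 libraries. For Sema3c the progesterone libraries (24.5 and 30.5 CPM) lay above the vehicle libraries (15.5 and 12.4), and the transgenic libraries overlapped both. Its log2 fold change for progesterone against vehicle was 0.97 ± 0.72, just short of the 2-fold rule. No group comparison of Sema3b separated the libraries. Sema3g, an endothelial ligand of Nrp2, ranged from 0.515 to 4.92 CPM with overlapping groups.

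**Figure D2:**
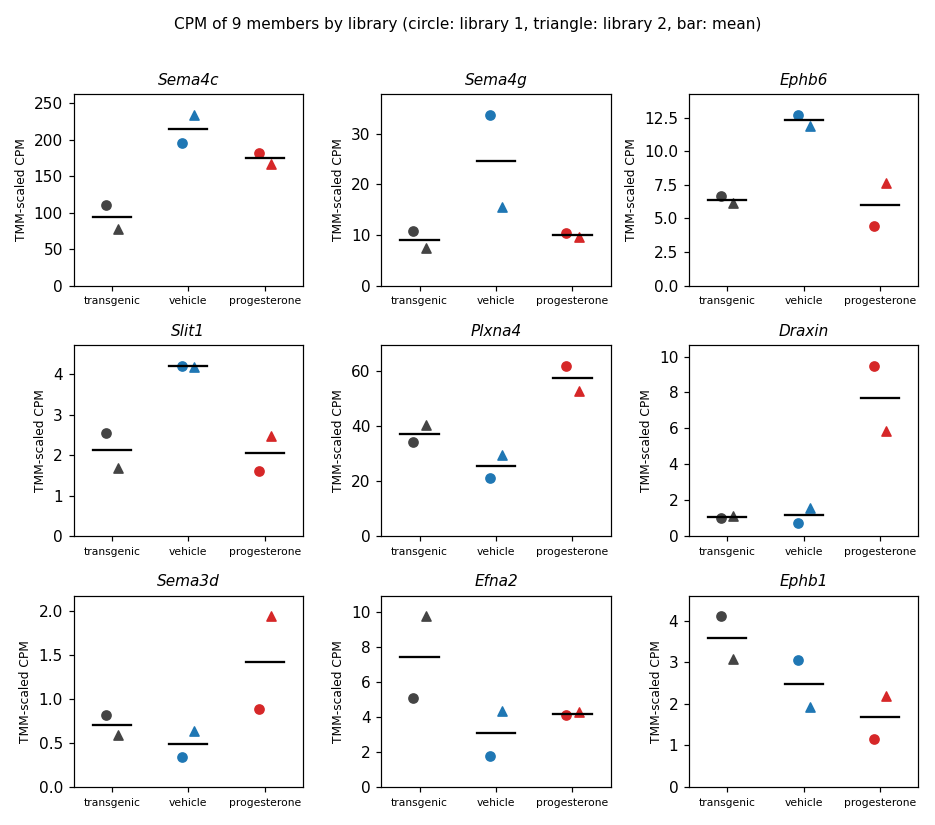
TMM-scaled CPM of the 9 members that met the 2-fold rule without overlap with a mean of at least 1 CPM in the higher group. Circles are library 1, triangles library 2 and bars group means, and each axis starts at 0. The vehicle libraries are the highest for Sema4c, Sema4g, Ephb6 and Slit1 and the lowest for Plxna4, and the progesterone libraries are the highest for Draxin (9.50 and 5.83 CPM).

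Of the remaining semaphorins, Sema7a, which also binds an integrin on immune cells, had 61.6 and 162 CPM for transgenic tumours, 105 and 177 for vehicle tumours and 87.8 and 61.7 for progesterone tumours. The progesterone libraries lay below the vehicle libraries (log2 fold change -0.92 ± 0.46; -0.49 without vehicle library 2), and the transgenic libraries reached across both. Sema5a, a transmembrane semaphorin with thrombospondin repeats, had 53.9 and 12.1 CPM for transgenic tumours, 47.1 and 57.7 for vehicle tumours and 38.9 and 73.4 for progesterone tumours. Transgenic library 2 was more than 2-fold below every other library for it. Among class 6 members, Sema6b ranged from 40.4 to 60.2 CPM and Sema6d from 82.3 to 123. For Sema6d both vehicle libraries, at 108 and 123 CPM, were above the other 4, with a log2 fold change of 0.23 against transgenic tumours.

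Among the semaphorin receptors, Plxna4 was the only one of the 60 members whose vehicle libraries both lay below the other 4. Plexin A4 is a signalling receptor for class 3 semaphorins with neuropilins and for class 6 semaphorins. The gene (ENSMUSG00000029765, chromosome 6, 32144268 to 32588192) had 34.3 and 40.3 CPM for transgenic tumours, 21.2 and 29.6 for vehicle tumours and 62.1 and 53.0 for progesterone tumours. The 3 groups did not overlap: vehicle was lowest, transgenic between and progesterone highest. The log2 fold change was 1.18 ± 0.23 for progesterone against vehicle (adjusted p = 0.826 by edgeR, 0.00193 by DESeq2), -0.56 ± 0.23 for vehicle against transgenic and 0.63 ± 0.22 for progesterone against transgenic tumours. Leaving out each library in turn gave 0.95 to 1.44 for the first of these. The 13 macrophage and monocyte markers summed to 1272 and 1492 CPM in the progesterone, 566 and 1221 in the transgenic and 780 and 778 in the vehicle libraries. Of these, Cd68 and Csf1r were above the other 4 libraries in both progesterone libraries, whereas 5 (C1qa, C1qb, C1qc, Ccr2 and Fcgr1) were highest in transgenic library 2 and Cd14 in transgenic library 1. Their part in the values of Plxna4 was not tested.

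The other plexins stayed closer together. Plxnb2, the main plexin here, ranged from 271 to 459 CPM, Plxna1 from 128 to 191 and Plxnd1, the endothelial plexin, from 93.9 to 127, each with overlapping groups. Plxnb1, a receptor of Sema4d, had 3.70 and 8.56 CPM in the transgenic libraries and 2.24 to 4.30 in the others. Of 8 plexins past the filter, 5 had higher and 3 lower values in each of the 3 comparisons, and Plxnb3 did not pass it. Of the neuropilins, Nrp2 had 316 and 325 CPM for transgenic tumours, 349 and 499 for vehicle tumours and 442 and 440 for progesterone tumours. Its transgenic libraries were the lowest (log2 fold change 0.40 ± 0.20 for vehicle and 0.46 ± 0.20 for progesterone against transgenic; 0.12 for vehicle without vehicle library 2). Nrp1, a co-receptor shared with vascular endothelial growth factor, had 93.7 CPM in progesterone library 2 and 42.4 to 55.6 in the other 5.

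**Figure D3:**
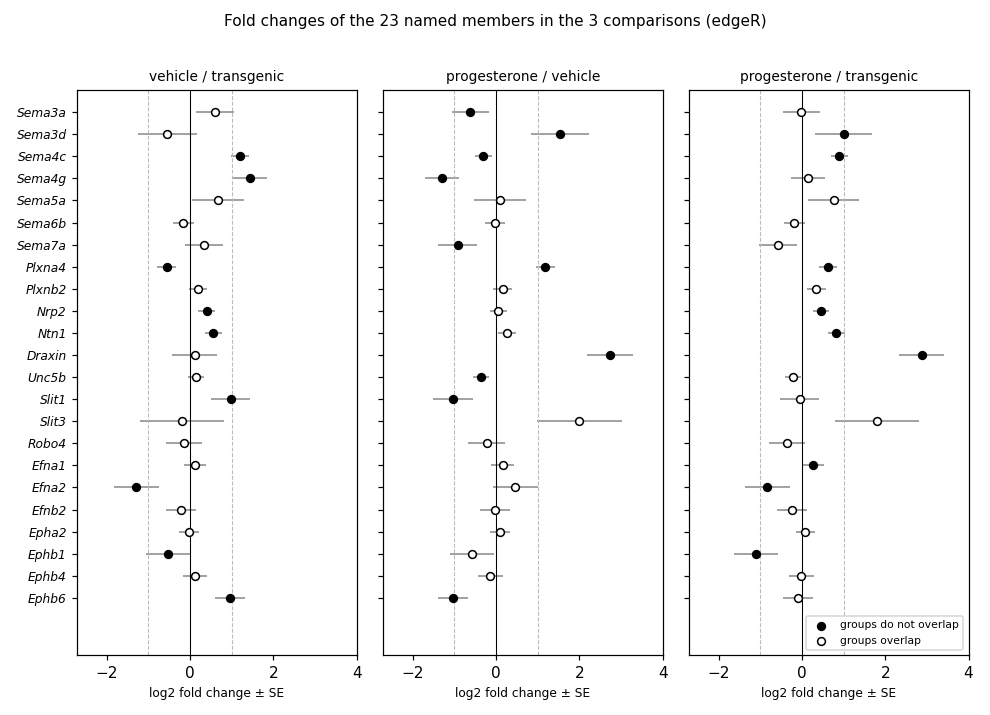
Log2 fold change ± SE (edgeR) of the 23 named members in the 3 comparisons, by family. Filled points are members whose 2 groups do not overlap, and dashed lines mark a 2-fold difference. Draxin lies at 2.74 and 2.87 in the 2 comparisons with progesterone tumours, and the comparisons share libraries, so panels are not independent.

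In the netrin system, netrin 1 (Ntn1, ENSMUSG00000020902, chromosome 11, 68209364 to 68400823) had 380 and 405 CPM for transgenic tumours, 561 and 597 for vehicle tumours and 824 and 570 for progesterone tumours. Both groups of ovariectomized hosts were above the transgenic libraries and overlapped each other. The log2 fold change was 0.56 ± 0.21 for vehicle and 0.83 ± 0.21 for progesterone against transgenic tumours (adjusted p = 0.837 and 0.914 by edgeR; 0.0452 by DESeq2 for the second). Without progesterone library 1 the second was 0.54. Ntn4, a basement membrane netrin, had 9.33 and 12.3 CPM for transgenic, 11.0 and 14.5 for vehicle and 6.41 and 10.5 for progesterone tumours, the last 2 groups without overlap.

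Draxin encodes a secreted inhibitor that binds netrin and Dcc and repels axons. The gene (ENSMUSG00000029005, chromosome 4, 148098437 to 148130698) had 1.0 and 1.10 CPM for transgenic tumours, 0.720 and 1.59 for vehicle tumours and 9.50 and 5.83 for progesterone tumours, from 27 and 26, 21 and 30, and 246 and 141 counts. Both progesterone libraries were far above the other 4, which overlapped. The log2 fold change was 2.74 ± 0.55 against vehicle (adjusted p = 0.826 by edgeR, 0.00284 by DESeq2) and 2.87 ± 0.55 against transgenic tumours (adjusted p = 0.914 by edgeR, 0.00287 by DESeq2). It stayed between 2.26 and 3.40, and between 2.47 and 3.18, without each library in turn. Draxin overlaps the start of Mad2l2, on the other strand, by 315 bases, and the strand setting of the counting is not given in the sources used here. Mad2l2 had 15.3 and 18.3, 13.7 and 15.6, and 20.9 and 10.9 CPM in the 3 groups. Its log2 fold change for progesterone against vehicle was 0.12, with 1 progesterone library above and 1 below the other 4. The part of Mad2l2 reads in the Draxin values was not tested. Of 10 mast cell and basophil markers, 7 (among them Cma1, Cpa3 and Tpsb2) were also above the other 4 libraries in both progesterone libraries, while the basophil protease Mcpt8 was below them in both, and Kit and Hdc overlapped. The list summed to 144 and 236 CPM there, against 47.7 to 63.5 in the other 4. Their part in the Draxin values was not tested.

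The netrin receptors showed smaller differences. Unc5b, found on endothelium, had 135 and 174 CPM for transgenic tumours, 158 and 183 for vehicle tumours and 120 and 146 for progesterone tumours, with a log2 fold change of -0.36 ± 0.19 for progesterone against vehicle. Unc5a ranged from 19.3 to 49.6 CPM with overlapping groups. Dcc, Unc5c and Unc5d had at most 1.28 CPM in any library.

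The Slit ligands varied more between libraries than between groups. Slit1 (ENSMUSG00000025020, chromosome 19, 41600257 to 41743665) was the exception, with 2.56 and 1.69 CPM for transgenic tumours, 4.22 and 4.19 for vehicle tumours and 1.62 and 2.48 for progesterone tumours. Both vehicle libraries were above the other 4, with log2 fold changes of 0.98 ± 0.47 against transgenic and -1.03 ± 0.47 from vehicle to progesterone tumours (0.72 without transgenic library 2 and -0.76 without progesterone library 1). Slit2 had 22.9 and 3.50, 6.45 and 29.3, and 12.2 and 10.8 CPM in the 3 groups. Slit3 had 29.6 CPM in progesterone library 2 and 2.11 to 7.25 in the other 5. Robo4, the endothelial Robo, had 5.76 CPM in progesterone library 1 and 11.1 to 14.8 in the other 5, and Robo1 had 0.464 there and 1.22 to 2.67 in the others.

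Of the Eph receptors, Ephb6 and Ephb1 met the rule. Ephb6 is a receptor whose kinase domain is inactive. The gene (ENSMUSG00000029869, chromosome 6, 41605482 to 41620509) had 6.67 and 6.11 CPM for transgenic tumours, 12.7 and 11.9 for vehicle tumours and 4.40 and 7.61 for progesterone tumours. Both vehicle libraries were above the other 4, which overlapped. The log2 fold change was 0.95 ± 0.36 against transgenic tumours (0.89 to 1.01 without each library in turn) and -1.04 ± 0.36 from vehicle to progesterone tumours (-0.70 without progesterone library 1 and -1.48 without progesterone library 2). Its adjusted p was 0.837 and 0.935 by edgeR.

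Ephb1 (ENSMUSG00000032537, chromosome 9, 101922128 to 102354693), an active kinase of the same class, had 4.11 and 3.08 CPM for transgenic tumours, 3.05 and 1.91 for vehicle tumours and 1.16 and 2.19 for progesterone tumours. The transgenic libraries were above both other groups, with log2 fold changes of -0.53 ± 0.52 for vehicle and -1.10 ± 0.53 for progesterone against transgenic tumours. The second was -0.72 without progesterone library 1. Epha2, the main EphA receptor and a kinase of epithelial and tumour cells, had 127 and 169, 146 and 145, and 188 and 124 CPM in the 3 groups. Its log2 fold changes lay between -0.02 and 0.10, within the spread of the libraries. Ephb4, the receptor of veins, ranged from 17.3 to 30.3 CPM, Ephb3 from 3.50 to 12.3 and Epha3 from 1.52 to 10.9, all with overlapping groups. Ephb2 did not pass the filter and had 4.10 CPM in progesterone library 2 and at most 0.337 in the other 5.

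Among the ephrins, Efna2 (ENSMUSG00000003070, chromosome 10, 80179482 to 80190010), a membrane-anchored ligand of EphA receptors, met the rule. It had 5.11 and 9.78 CPM for transgenic tumours, 1.78 and 4.35 for vehicle tumours and 4.13 and 4.26 for progesterone tumours. The transgenic libraries were the highest, with log2 fold changes of -1.29 ± 0.54 for vehicle and -0.83 ± 0.54 for progesterone. Without transgenic library 2 these were -0.74 and -0.28, and the first was -0.77 without vehicle library 1 and -2.06 without vehicle library 2. Efna1, the main ephrin here, had 17.0 and 16.6, 14.2 and 22.4, and 19.9 and 20.9 CPM in the 3 groups, with a log2 fold change of 0.27 for progesterone against transgenic tumours. Efnb2, the arterial ephrin, had 43.7 and 31.2, 36.2 and 28.5, and 20.8 and 42.5 CPM, with overlapping groups. Efna5 had 9.97 and 30.2 CPM in the progesterone libraries, which lay outside all other values on both sides.

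Read over all 3 groups at once, both vehicle libraries lay above the other 4 for 5 of 60 members (8.33%, beside 6.87% of all genes) and below them for 1 (1.67%, beside 7.33%). These were Ephb6, Sema4c, Sema4g, Sema6d and Slit1 above, and Plxna4 below. The 15 hypoxia genes summed to 7164 and 6548 CPM in the vehicle libraries and to 3961 to 5278 in the others, and the 14 cell cycle genes to 1262 and 1481 CPM against 1756 to 2796. Of these, 11 hypoxia genes were above and 13 cell cycle genes below the other 4 libraries in both vehicle libraries. The part of either in the values of these 6 members was not tested.

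The 2 progesterone libraries lay at opposite ends for many members, a pattern looked for after the values were seen. Progesterone library 1 was the lowest of the 6 libraries for 21 of 60 members (35.0%, beside 18.6% of all genes), and progesterone library 2 the highest for 20 (33.3%, beside 17.3%). Transgenic library 2 was the lowest for 12 of 60 (beside 22.2%) and the highest for 5 (8.33%, beside 23.1%). Of 13 members known from vessels, progesterone library 1 was the lowest for 8: Efnb2, Ephb4, Ntn4, Plxnd1, Robo4, Sema3f, Sema6d and Unc5b. It was the highest for Epha2, and neither lowest nor highest for Efna1, Nrp1, Nrp2 and Sema3g. The distances of the 8 varied. Plxnd1 had 93.9 CPM in progesterone library 1 against 98.5 to 127 in the others. Unc5b had 120 against 135 to 183 and Sema6d 82.3 against 94.1 to 123. Robo4 (5.76 against 11.1 to 14.8) and Sema3f (8.38 against 15.3 to 21.7) lay further below in that library. All 15 endothelial markers were also lowest in that library (165 CPM summed, against 384 in progesterone library 2), as were 9 of 12 pericyte and smooth muscle markers (123 CPM summed, against 198 to 337 in the others). The part of these cells in the 8 values was not tested. Transgenic library 2 was at least 2-fold below every other library for 4 members, Epha4, Ntn3, Sema3c and Sema5a (6.67%, beside 1.92% of all genes). Of 13 fibroblast markers, 8, among them Col3a1, Dcn and Lum, were lowest in the same library, but Col1a1, Col1a2, Thy1, Postn and Mfap5 were not, and their part was not tested. Progesterone library 2 was at least 2-fold above every other library for Robo2, Sema3d and Slit3 (5.00%, beside 2.13%). Progesterone library 1 was at least 2-fold below every other for Dcc, Epha5, Robo1 and Sema6a (6.67%, beside 1.61%). Some of these low values were at the floor. Epha4 had 1 count in transgenic library 2, and Dcc and Epha5 had 0 and 1 in progesterone library 1. As a count of 0 allows up to 3, the 2-fold distance of Dcc, Epha4 and Epha5 is uncertain. The remaining libraries and directions held 0 to 2 members each.

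**Figure D4:**
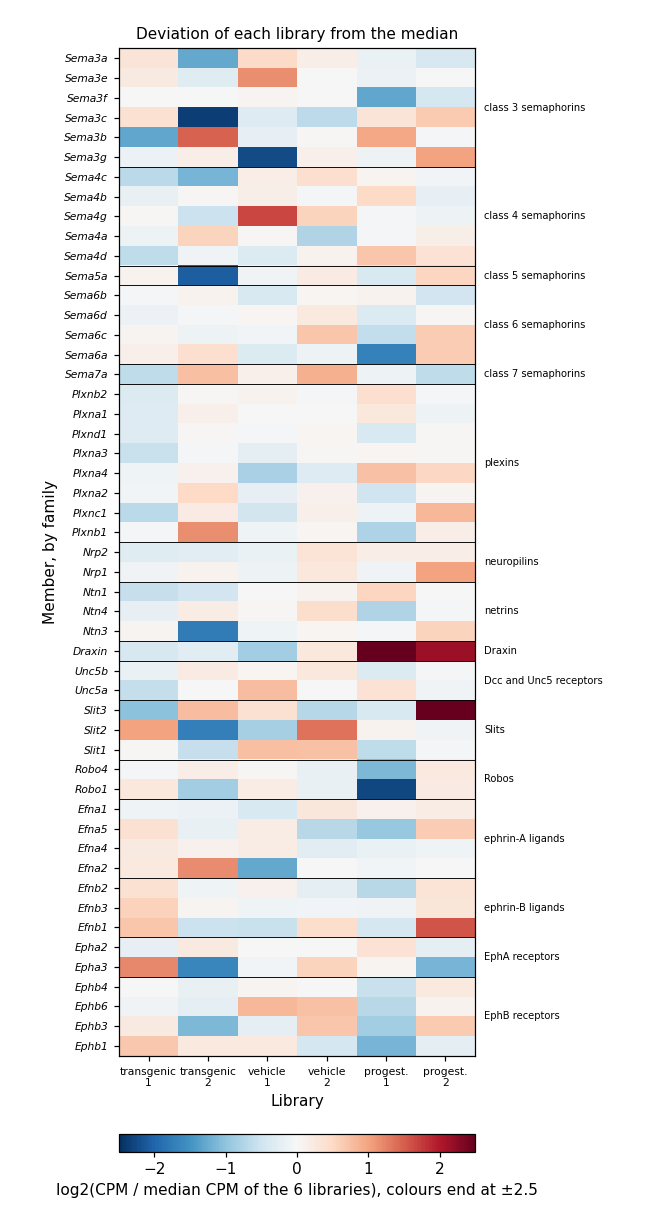
Log2 ratio of the CPM in each library to the median of the 6 libraries, for the 51 members with a mean of at least 1 CPM, by family; colours end at ±2.5. The vehicle columns share red for Ephb6 and Slit1 and blue for Plxna4, both progesterone columns are red for Draxin, and single cells stand out for Sema3c and Sema5a in transgenic library 2 and Slit3 in progesterone library 2.

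A last set of members, examined after the values were seen, was near the limit of detection. In all, 19 members had a mean under 1 CPM, and 9 of these passed the filter. They include the neuronal receptors Dcc, Epha5, Epha6, Epha7, Robo2, Unc5c and Unc5d, and the semaphorins Sema4f and Sema5b. The 7 whose gene spans at least 200 kb (Dcc, Epha5, Epha6, Robo2, Sema3d, Unc5c and Unc5d) summed to 4.96 and 1.98 CPM for transgenic tumours, 2.92 and 1.06 for vehicle tumours and 1.24 and 7.90 for progesterone tumours. Within each group they thus differed more than 2-fold between libraries. All 368 genes of the table with a mean under 1 CPM and such a span summed to 221 and 78.8, 170 and 75.1, and 64.2 and 299 CPM, so the same library of each group was the higher. The order was not confined to long genes. The 6680 genes under 1 CPM with a span under 200 kb summed to 1128 and 957, 1002 and 877, and 863 and 1536 CPM. The 12 low members with a span under 200 kb summed to 2.33 and 1.77, 1.13 and 1.33, and 1.66 and 8.11 CPM, with the vehicle libraries in the other order. The neuron markers did not share 1 order over the libraries. Of 12 in the table, Elavl4, Map2, Nefh and Stmn2 were highest in progesterone library 2, where only Map2 was above 1 CPM (4.51). Nefl, Nefm and Prph were highest in transgenic library 2, and Syt1 and Elavl3 in transgenic library 1. Rbfox3 was highest in vehicle library 1, Th in vehicle library 2 and Snap25 in progesterone library 1. The summed CPM of the 12 markers was 19.6 and 172, 74.5 and 54.8, and 49.1 and 33.6, mostly from Nefl, Nefm and Prph. Their part in the values of the low members was not tested.

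**Figure D5:**
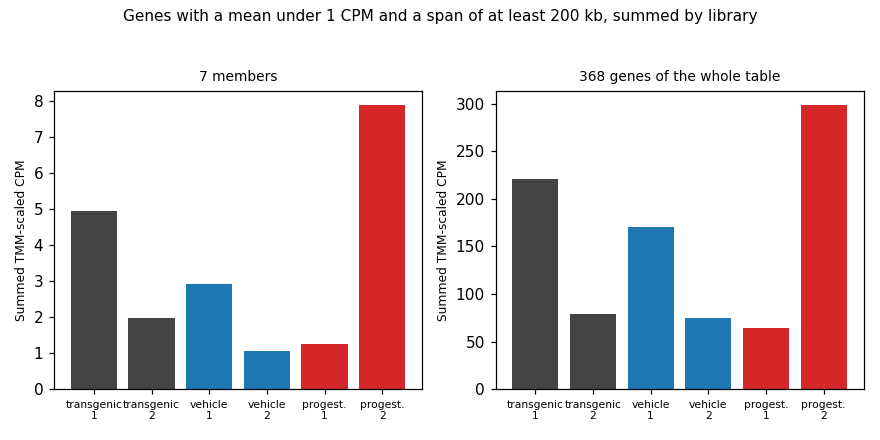
Summed TMM-scaled CPM, by library, of genes with a mean under 1 CPM and a span of at least 200 kb: 7 members on the left and 368 genes of the whole table, which include them, on the right. Both axes start at 0, and in both panels transgenic library 1, vehicle library 1 and progesterone library 2 are the higher library of their group.

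Other genes of the pathway were described from 2 lists. Of 61 effectors, most of them intracellular, such as exchange factors and collapsin response mediators, 60 had a row of counts. Of the 60, 57 passed the filter and 0 were called by edgeR in any comparison. Of these, 31 had higher and 26 lower values in vehicle against transgenic, 22 higher and 35 lower in progesterone against vehicle, and 29 higher and 28 lower in progesterone against transgenic tumours. Of 35 co-receptors and further ligands, 32 passed and 0 were called, with 16 higher and 16 lower, 13 higher and 19 lower, and 15 higher and 17 lower in the same order. The median log2 fold changes of both lists lay between -0.14 and 0.03. By the 2-fold rule, at most 2 genes of either list passed in each comparison and direction. The exchange factor Vav3 was higher in vehicle than in transgenic tumours (log2 fold change 1.21 ± 0.23) and the actin-binding Ablim3 lower (-1.06 ± 0.70). The exchange factor Ngef (1.19 ± 0.65), which acts downstream of EphA receptors, and Cd72 (1.07 ± 0.50), a receptor of Sema4d on B cells, were higher in progesterone than in vehicle tumours. Against transgenic tumours, the exchange factor Tiam1 was higher (1.16 ± 0.42) and the GTPase Rnd1, which binds plexins, lower (-1.10 ± 0.40) in progesterone tumours. Dscam, an adhesion receptor that binds netrin, had 0.240 to 1.08 CPM, and was lower in vehicle than in transgenic tumours (-1.32 ± 0.78) and higher in progesterone than in vehicle tumours (1.30 ± 0.78). The shares of all genes that met this rule are those given above for the same comparisons (1.48% to 3.25%).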

How the data were processed

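RNA was measured in 6 libraries, 3 groups of 2. The authors deposited raw read counts per gene, with no normalization; per the submitters' processing notes HISAT2, HTSeq and DESeq were used with GRCm38.p6, but the sources used here do not give versions, settings or strand use in counting. Per the labels' protocols, a directional mRNA kit was used on total tumour RNA. All 19288 rows name a gene, and 0 count columns were left unused.

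Counts were analysed in R 4.3.3. Genes past edgeR 4.0.16 filterByExpr (13632) were TMM-scaled and fitted by quasi-likelihood with 1 mean per group over all 6 libraries (3 residual degrees of freedom), with Benjamini-Hochberg adjustment over all of them. Standard errors come from the F statistic, and CPM values and library sizes are TMM-scaled. The scripts were tested on simulated data. The labels number libraries but do not name separate animals, so a p-value reflects only variation among these libraries, which may be technical, and limits for 0 counts cover counting error only.

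Members and lists were chosen with earlier results of these data known. Members were named with per-library values if they met the 2-fold rule with a higher-group mean of at least 1 CPM, or if both vehicle libraries lay above or below the other 4 with a mean of at least 5 CPM and a log2 fold change of at least 0.58 against vehicle, or if they were the highest of their family per kb of exon; other members, such as Sema3f, Sema3e and Sema4d, were described after their values were seen. Of the 70 members, 70 have the same symbol in GENCODE vM21 (GRCm38), the source of gene coordinates (1-based) and lengths. Alternatives were DESeq2 1.42.0, limma-voom (limma 3.58.1), DESeq2 size factors, no low-count filter, only the 2 groups compared, a replicate block, and leaving out each library.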

Additional observations from a re-analysis of the deposited data

How the results depend on the processing

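With 2 libraries per group, differences below about the spread of the libraries could not be detected. Differences well beyond that spread were not called by edgeR either. Draxin, at a log2 fold change of 2.74 ± 0.55 for progesterone against vehicle tumours, had an adjusted p of 0.826 by edgeR. Members called numbered 0 in each comparison by edgeR with TMM, with DESeq2 size factors, with only the 2 groups compared, by limma-voom, with the replicate block and without each library in turn (range 0 to 0). With no low-count filter they numbered 1, 2 and 1, and by DESeq2 1, 2 and 3, for vehicle against transgenic, progesterone against vehicle and progesterone against transgenic tumours. With no filter, members at least 2-fold lower without overlap numbered 5 for vehicle against transgenic and 2 for progesterone against transgenic, those higher 7 for progesterone against vehicle, and those with the vehicle libraries above or below the other 4 numbered 11.

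A left-out library leaves its group with 1 library, assumed to vary like the others, and makes non-overlap easier to meet. The counts of members at least 2-fold higher then ranged from 2 to 13, 3 to 18 and 2 to 16 in the 3 comparisons, those lower from 2 to 8, 3 to 13 and 1 to 14, and those with the vehicle libraries apart from 7 to 22. The highest counts came without transgenic library 1 (13 higher), progesterone library 1 (18 and 16 higher), vehicle library 1 (8 lower and 22 apart) and progesterone library 2 (13 and 14 lower). The median of the members for vehicle against transgenic was -0.04 with no filter and -0.04 without vehicle library 2; leaving out each library in turn the medians ranged from -0.04 to 0.05, from -0.40 to 0.27 and from -0.32 to 0.30 in the 3 comparisons. The median was -0.40 for progesterone against vehicle and -0.32 for progesterone against transgenic without progesterone library 2, and -0.01 for the latter with only the 2 groups compared; the cause was not tested. The 28 log2 fold changes of named members without overlap kept their sign under all 336 alternatives run, and 10 of these were past the threshold. The replicate block changed no call; libraries with the same number share only a number, with correlations of their deviations from the group means of 0.0802, -0.174 and -0.124 between groups.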
